A study of Mus musculus with 10 samples.

Results

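The SOX transcription factors described here were Sox1, Sox2, Sox4, Sox5, Sox8, Sox9, Sox10, Sox11, Sox17 and Sox18, chosen by gene symbol, through the RefSeq accession of each probe. These 10 genes were measured by 20 probes, out of 18539 genes named on the arrays, and 9 further SOX genes on the arrays served as a comparison. SOX proteins bind DNA through an HMG box, a domain that sits in the minor groove and bends the helix, and they often act beside a partner such as a POU protein. Related members form subgroups that share much of their function, from the upkeep of neural progenitors (SoxB1) and the maturation of neurons (SoxC) to the making of glia and cartilage (SoxE) and of blood vessels (SoxF).

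Each of the 10 arrays carried RNA from the hemibrain of a male C57BL/6J mouse in Cy-5 and a second RNA in Cy-3. The mice were put on a standard diet (SD) or a fish oil enriched diet (FD) at 3 weeks of age. They were kept on it for about 20 weeks, to 5 months. By the methods, FD held more fat and more n-3 polyunsaturated fatty acids than SD. The labels give FD as the diet of every Cy-5 sample yet describe the samples as controls. The methods count arrays of both diets, but fewer arrays than the 10 here. No array was therefore placed in a diet group, and no diets were compared. All arrays had the same dye orientation, so a dye bias particular to a probe is part of every ratio. A ratio is given below as log2 of Cy-5 over Cy-3, where 1 means a 2-fold higher signal in the hemibrain RNA, and for a gene with several probes the brightest probe stands for the gene. A probe is called detected in a dye on an array where the software flagged it as well above background. The number of arrays limits the precision of these values.

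The hemibrain label was borne out by its defining markers in Cy-5. All 8 neuron genes were detected in Cy-5 throughout, and 7 had a ratio of at least 1 on every array, with Nefl, a neurofilament subunit, highest at a median of 8.34 and Syn1, a synaptic vesicle protein, lowest at -0.27. The same ratio rule was met by 11 of 13 oligodendrocyte genes and by 7 of the 9 astrocyte genes with a value on every array. The labels call the Cy-3 RNA a pool of hemibrains of SD-fed mice, whereas the methods name a commercial reference RNA. A median ratio of 5.33 over the neuron genes, against 0.06 over all genes, goes against a hemibrain pool, and the Cy-3 RNA is called the reference RNA here.

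Of the 10 SOX genes, 6 had a ratio of at least 1 on every array, namely Sox2, Sox8, Sox10, Sox11, Sox17 and Sox18, whereas 15.7% of all 17659 genes with a value on every array did so. That count depended on the processing, as it was 0 after normexp background correction and 5, without Sox11, with the mean over all probes of a gene. None of the 10 had a ratio of -1 or lower on every array, a rule met by 16.1% of all genes. Among genes well above background in both dyes on every array the counts were 3 of 6 SOX genes above (Sox10, Sox11 and Sox17), beside 17.3% of 10533 genes, and 0 of 6 below, beside 16.8%. The hemibrain is a mixture of cells, and a larger number of cells that use a gene cannot be told apart from more RNA per cell.

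**Figure D1:**
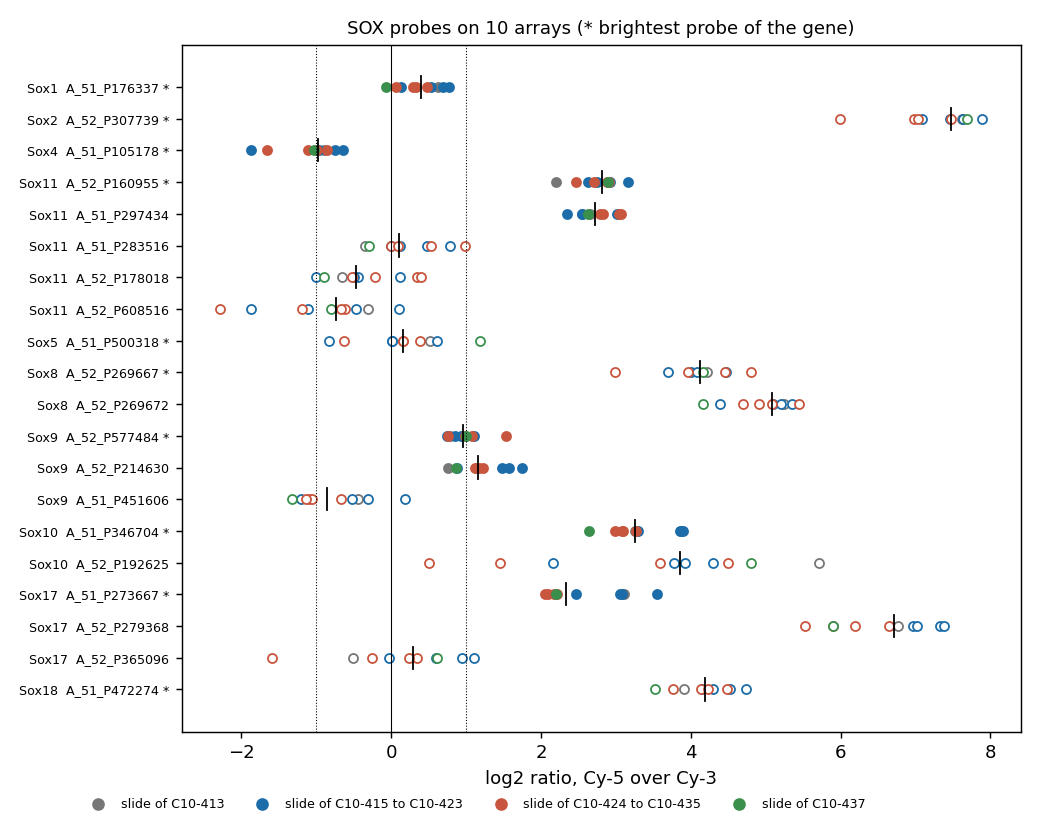
Log2 ratio of Cy-5 over Cy-3 for the 20 SOX probes, with 1 point per array coloured by slide, filled where the probe was well above background in both dyes on all 10 arrays and open elsewhere. Black bars mark medians, dotted lines a ratio of 1 and -1, and the probes of Sox11, Sox9 and Sox17 lie far apart within a gene.

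The SoxB1 genes keep neural progenitors from differentiating, and in the adult brain Sox2 is also used by glia. Sox2 (A_52_P307739) was detected on 10 arrays in Cy-5 but was not well above background on any in Cy-3, which leaves only a lower bound for its ratio. As a mean over the 10 arrays the hemibrain signal was at least 55.1-fold the reference, and the lowest bound on an array was 23.4-fold, on C10-434. These bounds hold for the processed signals only. With other background steps the median log2 ratio was lower, at 2.97 after normexp and 3.40 after a subtraction with a floor. The Cy-5 level of Sox2, taken as log2 signal less the array's 75th percentile, ran from -0.54 to 0.24 with a median of -0.17. That range of 0.77 was larger than the Cy-5 range of 37.6% of the genes detected in both dyes on every array, so the Sox2 signal varied less over the hemibrains than that of most genes.

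Sox1 (A_51_P176337) was near the reference. Its ratio was 0.62 on C10-413, 0.77 on C10-415, 0.53 on C10-416, 0.69 on C10-417, 0.14 on C10-423, 0.33 on C10-424, 0.29 on C10-425, 0.48 on C10-434, 0.06 on C10-435 and -0.07 on C10-437. It lay above 0 on 9 arrays and reached 1 on 0.

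The SoxC genes Sox4 and Sox11 act in newly formed neurons. Sox4 (A_51_P105178) had the lowest median ratio of the 10 genes, at -0.98, and lay below 0 on all 10 arrays. Its lowest ratios were -1.87 on C10-423 and -1.65 on C10-435, and its highest was -0.65 on C10-416. It passed -1 on 4 arrays. The Cy-3 level of this probe stayed within 0.17 over the arrays while its Cy-5 level ranged over 1.23, so the differences between arrays lay in the hemibrain channel.

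Sox11 gave different answers from different probes, all of which carry the same accession. The brightest (A_52_P160955) ran from 2.20 on C10-413 to 3.16 on C10-423 with a median of 2.81, and A_51_P297434 ran from 2.34 to 3.07 with a median of 2.73. The other 3 had medians of 0.10, -0.47 and -0.74. They were detected in Cy-5 on 9, 9 and 6 arrays, and none of them reached a ratio of 1 on any array. The high ratio of Sox11 therefore rests on 2 of its 5 probes, and with the mean over all 5 the median was 0.91.

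The promoters of these 4 genes are shown because the members of each pair, Sox1 with Sox2 and Sox4 with Sox11, differed in the ratio of their brightest probes. Each is the stretch of 250 bases before the RefSeq start in GRCm38.p6, at chr8:12395269-12395518 (plus strand) for Sox1, chr3:34649745-34649994 (plus) for Sox2, chr13:28953700-28953949 (minus) for Sox4 and chr12:27342719-27342968 (minus) for Sox11. Capitals mark CCAAT, or ATTGG where it lies on the other strand.
Sox1: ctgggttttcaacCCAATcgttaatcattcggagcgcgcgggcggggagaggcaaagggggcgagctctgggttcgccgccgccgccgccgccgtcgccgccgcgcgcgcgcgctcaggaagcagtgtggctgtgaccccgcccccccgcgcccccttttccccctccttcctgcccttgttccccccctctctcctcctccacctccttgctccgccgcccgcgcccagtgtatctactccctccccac
Sox2: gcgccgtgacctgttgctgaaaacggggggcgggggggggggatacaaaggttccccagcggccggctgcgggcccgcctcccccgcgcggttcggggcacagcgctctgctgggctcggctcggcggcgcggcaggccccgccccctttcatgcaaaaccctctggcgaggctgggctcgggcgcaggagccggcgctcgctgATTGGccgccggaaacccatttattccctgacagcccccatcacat
Sox4: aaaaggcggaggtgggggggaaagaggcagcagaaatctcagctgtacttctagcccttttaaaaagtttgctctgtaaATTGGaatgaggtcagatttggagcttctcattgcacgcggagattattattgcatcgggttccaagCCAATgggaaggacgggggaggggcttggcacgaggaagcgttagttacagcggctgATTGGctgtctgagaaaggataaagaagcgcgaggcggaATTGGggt
Sox11: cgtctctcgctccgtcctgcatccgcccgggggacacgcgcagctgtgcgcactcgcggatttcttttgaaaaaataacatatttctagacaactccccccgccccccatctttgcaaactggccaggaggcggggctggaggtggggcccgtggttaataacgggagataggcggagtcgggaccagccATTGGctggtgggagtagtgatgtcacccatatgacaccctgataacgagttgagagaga
The letters occur 4 times before Sox4 and 1 time before each of Sox1, Sox2 and Sox11, and 33.8% of all 32851 promoters of this length hold them on either strand. RefSeq promoters were matched for 6 of the 10 genes, and Sox5 and Sox8 do not hold those letters. The core of many SOX binding sites, ACAAT, or on the other strand ATTGT, was found before Sox5 alone among the 6 and in 27.7% of all promoters. The letters TATAAA on either strand were found before 0 of the 6 and in 12.4% of all. The shares of G and C were 71.2% for Sox1, 72.0% for Sox2, 50.8% for Sox4 and 58.0% for Sox11, beside a median of 52.4% over all promoters. Promoters of Sox9, Sox10, Sox17 and Sox18 were not matched.

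Sox5, the SoxD member, lacks an activation domain of its own and is known from deep cortical layers and cartilage. Its probe (A_51_P500318) was detected on 6 arrays in Cy-5 and 7 in Cy-3. The ratio ran from -0.84 on C10-417 to 1.18 on C10-437 with a median of 0.16, on signals close to background, and no direction is given for it.

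The SoxE genes act in glia, where Sox9 marks astrocytes and Sox10 the oligodendrocyte lineage together with Sox8. Sox8 (A_52_P269667) had a ratio between 2.99 on C10-424 and 4.81 on C10-434, with a median of 4.12, and was detected in Cy-3 on 9 arrays. The second Sox8 probe (A_52_P269672), not well above background in Cy-3 on any array, gave a hemibrain signal at least 26.5-fold the reference as a mean over the arrays. Its lowest bound on an array was 12.9-fold, on C10-434, and its bounds hold for the processed signals only. The Cy-5 level of the first probe ranged over 0.44, and 3.39% of genes had a smaller range. That of the second probe ranged over 1.05, above the median of 0.87 over genes.

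Sox10 (A_51_P346704) was detected in both dyes on every array. Its ratio was 3.26 on C10-413, 3.87 on C10-415, 3.85 on C10-416, 3.90 on C10-417, 3.29 on C10-423, 3.09 on C10-424, 3.26 on C10-425, 3.09 on C10-434, 2.99 on C10-435 and 2.65 on C10-437. C10-415, C10-416 and C10-417 were highest. The second Sox10 probe (A_52_P192625) was detected on 7 arrays in Cy-5 and on 0 in Cy-3, and its values, from 0.51 to 5.71, are not read further.

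Sox9 was close to a 2-fold higher signal in the hemibrain by 2 of its 3 probes. The brightest (A_52_P577484) ran from 0.74 on C10-416 to 1.54 on C10-434 with a median of 0.96, and reached 1 on 4 arrays. A_52_P214630, printed as 10 spots on every array, ran from 0.76 on C10-413 to 1.75 on C10-417 with a median of 1.16. The dimmer A_51_P451606, detected in Cy-5 on 8 arrays, had a median of -0.86 and lay above 0 on 1 array only.

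The repeated spots of Sox9 give the technical error of a ratio within an array. Their SD lay between 0.05 and 0.15 with a median of 0.08 (8 to 10 spots an array after outlying spots were set aside), smaller than the error of 0.22 to 0.26 that the software assigns to a single spot of this probe. By this probe C10-415, C10-416 and C10-417 stood at 1.58, 1.48 and 1.75, above the 0.76 to 1.23 of the other 7 arrays, although single spots overlapped, with those of C10-435 reaching 1.39 and those of C10-416 going down to 1.38. The brightest probe placed the same 3 arrays at 0.85, 0.74 and 1.11, with C10-416 the lowest of all 10, so the order of the arrays depended on the probe even where the spots of a probe lay close together.

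**Figure D2:**
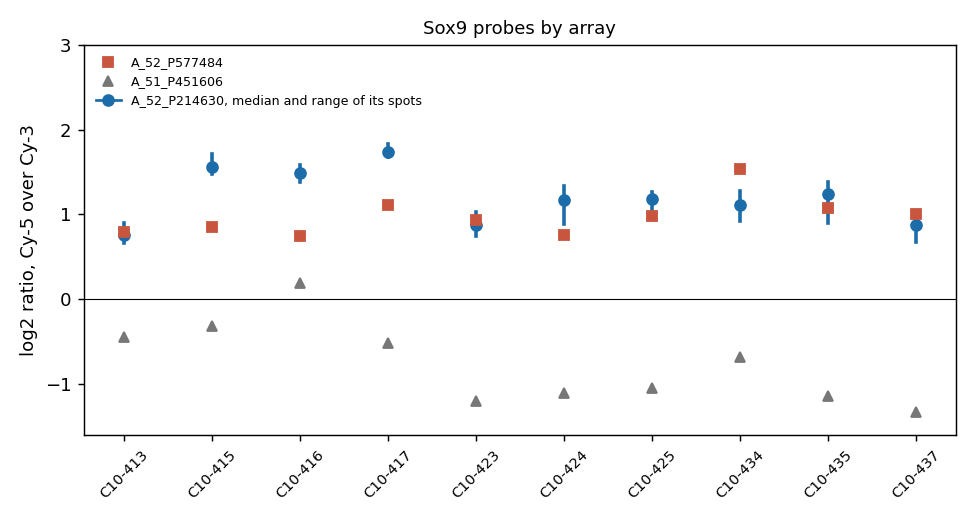
Log2 ratio of Cy-5 over Cy-3 of the 3 Sox9 probes on each array. Circles and bars give the median and full range of the repeated spots of A_52_P214630, squares the brightest probe and triangles the dimmest, whose median was -0.86.

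The SoxF genes are used by endothelial cells, and Sox17 also in the endoderm of the embryo. Sox18 (A_51_P472274) had a ratio from 3.52 on C10-437 to 4.74 on C10-417, with a median of 4.19, and was detected on 10 arrays in Cy-5 and 9 in Cy-3. Sox17 (A_51_P273667) had a ratio of 3.10 on C10-413, 3.06 on C10-415, 3.56 on C10-416, 3.09 on C10-417, 2.46 on C10-423, 2.05 on C10-424, 2.09 on C10-425, 2.22 on C10-434, 2.18 on C10-435 and 2.20 on C10-437. Its range of 1.51 was wider than that of 93.0% of the genes detected in both dyes throughout. A second Sox17 probe (A_52_P279368), not well above background in Cy-3, gave at least 28.6-fold in the same way, with a lowest bound of 15.0-fold on C10-425. Its bounds, too, hold for the processed signals only. The Sox17 probes, which carry the same accession, thus differed in size, as the median log2 ratio of the brightest was 2.34. Another probe (A_52_P365096) was not well above background in either dye on any array.

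Between the slides that held 4 arrays each, the reference channel differed for Sox17, Sox10 and Sox1. C10-415, C10-416, C10-417 and C10-423 shared a slide, and C10-424, C10-425, C10-434 and C10-435 shared another. On the first slide the Cy-3 level of Sox17 was -4.07 to -3.80, and on the second it was -2.96 to -2.68, although Cy-3 holds the same reference RNA by the methods. Its Cy-5 level overlapped, at -1.35 to -0.54 and -0.86 to -0.58.

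Sox10 showed the same arrangement, with Cy-3 levels of -2.48 to -2.03 on the first slide and -1.78 to -1.24 on the second, and Cy-5 levels of 0.82 to 1.79 and 1.29 to 1.81. For Sox1 the Cy-3 level was -4.07 to -3.62 on the first slide and -3.11 to -2.88 on the second, and the Cy-5 level was higher on the second as well, at -3.04 to -2.43 against -3.51 to -3.14. On the first slide C10-423, the lowest array of that slide in the ratios of Sox17 and Sox10, had the lowest Cy-5 level of all 10 arrays for both, at -1.35 and 0.82, with Cy-3 levels of -3.80 and -2.45. Over the 10 arrays the Cy-3 ranges of Sox1, Sox10 and Sox17 were 1.19, 1.24 and 1.39, wider than those of 93.2%, 93.6% and 95.1% of genes, where the median Cy-3 range was 0.23. The brightest probes of Sox4, Sox9 and Sox11 had Cy-3 ranges of 0.17, 0.14 and 0.23. Other probes of a gene did not always follow, since the dimmest Sox9 probe (A_51_P451606), detected in Cy-3 on 10 arrays, had a Cy-3 range of 1.36, with -4.48 to -4.21 on the first slide and -3.63 to -3.12 on the second, and a Sox11 probe (A_51_P297434) had a range of 0.74.

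By their brightest probes, 3 of the 6 SOX genes detected in both dyes on every array had a Cy-3 level higher on all 4 arrays of the second slide than on all 4 of the first, beside 16.6% of 10533 genes, and 0 had a lower one, beside 0.513%. For the Cy-5 level the counts were 1 higher (Sox1), beside 6.77%, and 0 lower, beside 0.161%. For the ratio they were 0 higher, beside 1.8%, and 2 lower (Sox10 and Sox17), beside 1.33%. This comparison of channels was chosen after the values were seen. The part of slide or labelling in the ratios of Sox10 and Sox17 was not tested apart from the animals, which differ between the slides.

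**Figure D3:**
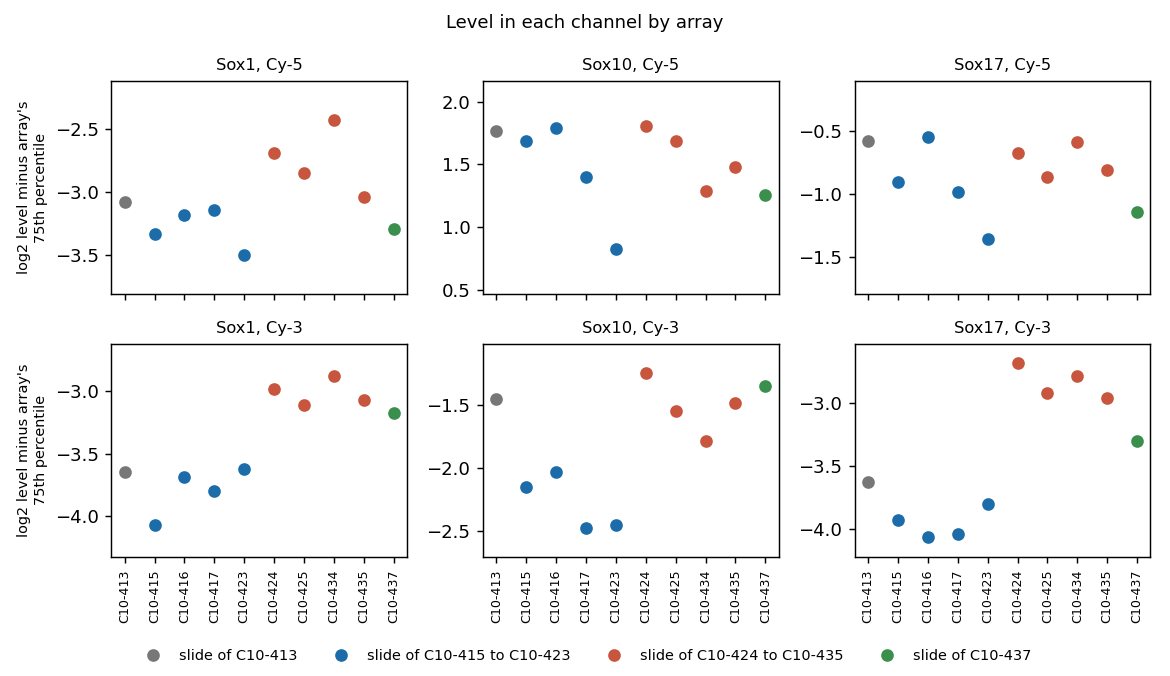
Cy-5 (top) and Cy-3 (bottom) level of the brightest Sox1, Sox10 and Sox17 probes on each array, as log2 signal less the array's 75th percentile, coloured by slide. Every panel spans the same height, and in Cy-3 the slide of C10-415 to C10-423 lies below the slide of C10-424 to C10-435 for all 3 genes.

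The slides were also compared with limma over 41042 probes. At an adjusted p under 0.05 (Benjamini-Hochberg) 0 of the 10 SOX genes were higher on the second slide, beside 0.0365% of probes, and 0 were lower, beside 0.039%. For Sox17 the second slide less the first gave -0.91 on the log2 scale (SE 0.23, limma adjusted p 0.179). For Sox10 this difference was -0.62 (SE 0.18, limma adjusted p 0.258). At an unadjusted p under 0.05, limma called 3 of the 20 SOX probes, 2 of them among the 10 brightest, and 9.92% of all probes.

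Other SOX genes were spread to both sides of the reference. Of 9 found, 1 had a ratio of at least 1 on every array (Sox6, a SoxD gene, with a median of 5.03, detected in Cy-3 on 6 arrays) and 2 were at -1 or lower on every array (Sox14 and Sox21). Over all genes 15.7% met the upper and 16.1% the lower rule, so these few counts are not read further. Among those well above background in both dyes, Sox13 was highest with a median of 1.53 and Sox21 lowest with -2.69. Sry, the testis-determining gene, and Sox30 were detected in Cy-5 on 0 arrays. Of the POU class III genes, known partners of SoxB1 proteins in neural cells, 3 of 4 met the upper rule, with Pou3f1 at a median of 5.19, and Pou3f4 was detected in Cy-5 on 0 arrays.

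The gene lists that go with SoxB1 and SoxC were mixed. Counts by the rules, here and in the lists below, take in every value, also those of probes not well above background. They stand beside 15.7% of all genes for the upper and 16.1% for the lower rule. Of 9 neural progenitor genes 2 met the upper and 2 the lower rule, from Fabp7, a fatty acid binding protein of radial glia, with a median of 5.48, to Hes1, a Notch target, with -1.90. Of 7 pluripotency genes 0 met either rule, with Lefty1 highest at 0.72 and Utf1 lowest at -1.03, and Lin28a and Zfp42 were detected in Cy-5 on 0 arrays. Of 10 immature neuron genes 5 met the upper and 1 the lower rule, with Stmn2, a neuronal microtubule regulator, at 4.92 and Cd24a, a surface glycoprotein, at -2.32.

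The medians of the oligodendrocyte and astrocyte lists lay far above the reference, though not every gene in them did. The oligodendrocyte list had a median of 4.84, with Myrf, a regulator of myelin genes, lowest at 0.73 among those detected in both dyes on every array. Of the 4 oligodendrocyte precursor genes, 3 of which had a value on every array, 1 met the upper rule (Lhfpl3, at 4.80) and 1 the lower (Pdgfra, at -2.56). Gpr17, with a value on 9 arrays, was at 4.05. The astrocyte list had a median of 4.22, with the glutamate transporter Slc1a3 at 6.62, and Gja1, Nfia and Nfib at 0.63, 0.46 and 0.03.

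Lists tied to other roles of the SoxD and SoxE genes differed among themselves. Deep cortical layer genes met the upper rule for 4 of the 4 with a value on every array, of which Bcl11b was lowest at 2.13, and Crym, with a value on 9 arrays, was at 6.77. Of 8 cartilage genes 4 were above and 1 below by the same rules. Col9a2 was at 2.29 and Col11a2 at 1.81, the highest and lowest of those detected in both dyes on every array, whereas Col2a1 was at -4.44 (detected in Cy-5 on 9 arrays), and Matn1 was detected in Cy-5 on 0 arrays. Of 6 melanocyte genes 2 met the upper rule, with Ednrb at 3.45 and Mitf at -1.37, and Tyr, the enzyme that starts pigment synthesis, was detected in Cy-5 on 0 arrays. Of 6 Sertoli and gonad genes 1 met it, with Inha at 1.83 and Gata4 at 0.30, and Dmrt1 was detected in Cy-5 on 0 arrays.

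Endothelial genes, the company of Sox17 and Sox18, met the upper rule for 7 of the 10 with a value on every array. Among those detected in both dyes on every array, Cldn5, a tight junction protein of brain vessels, was highest with a median of 5.18 and Eng lowest with -0.03. Erg was detected in Cy-5 on 0 arrays. Of 3 mural cell genes with a value on every array 2 were above (Rgs5, and Abcc9, detected on 0 arrays in Cy-3 and 9 in Cy-5) and 1 below (Acta2, at -2.25), and Pdgfrb, with a value on 9 arrays, was at -0.50. Of 5 endoderm genes 0 were above and 2 below, with Gata6 at -5.68 the lowest of those detected in both dyes on every array, and Afp, detected in Cy-5 on 4, at -5.70. Of 5 microglia genes 2 met the upper rule, with Cx3cr1 at 3.57 and Tmem119 at 0.12.

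**Figure D4:**
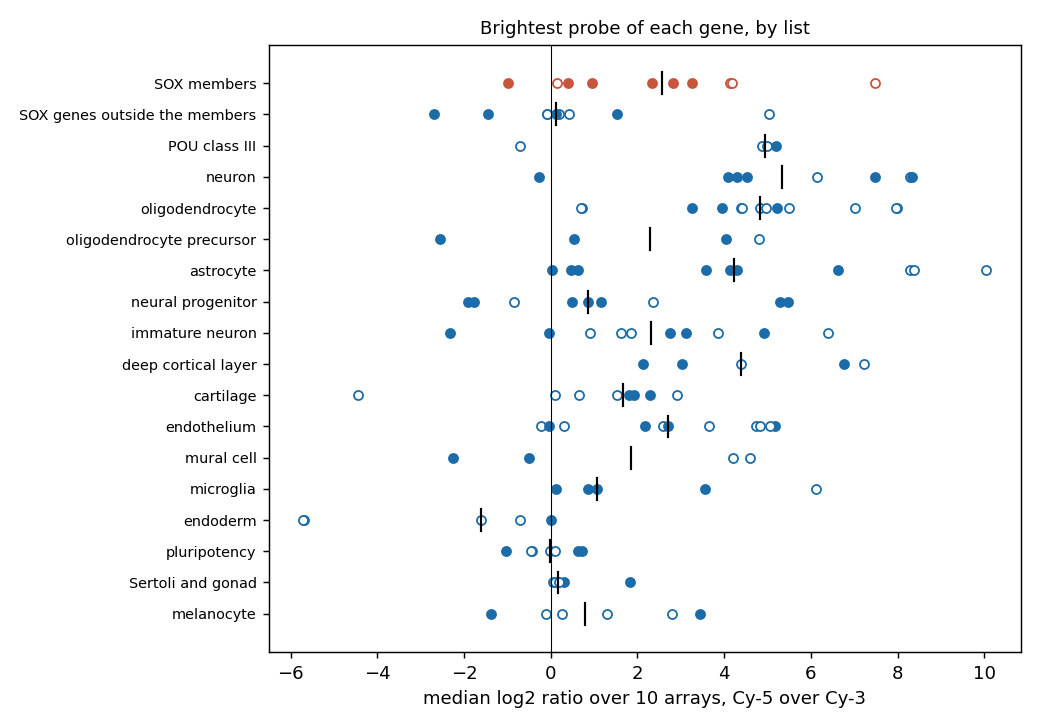
Median log2 ratio over 10 arrays of the brightest probe of each gene, for the 10 SOX genes (red) and the other lists (blue), filled where well above background in both dyes on every array. Black bars mark list medians, from 5.33 for neuron genes to -1.61 for endoderm genes.

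The genes whose ratio over the 10 arrays was most like that of a SOX gene were sought among 10532 others well above background in both dyes. They are the highest of many correlations and carry no test. For Sox4 they were Hdac7 (r 0.98), Jdp2 (r 0.97) and Rps6ka2 (r 0.96), and the lowest r of these 3 within a slide of 4 arrays was 0.93. For Sox10 they were Emx1, Fam110a and Apc2 (r 0.95 each), for Sox1 Mrc2, 5730416F02Rik and Nudt18 (r 0.94, 0.94 and 0.93), and for Sox11 Rbm18, Tiam2 and Trps1 (r 0.95, 0.94 and 0.94). Within a slide the lowest r was 0.70 for Sox10 (Apc2), 0.88 for Sox1 (Mrc2) and 0.69 for Sox11 (Tiam2).

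For Sox17 the genes were Pnmal1 (r 0.96, rho 0.88), Ccny (r 0.95, rho 0.79) and Kcnc4 (r 0.94, rho 0.64). Within the first slide r was 0.99, 0.99 and 0.96, and within the second 0.13, -0.48 and -0.95, where Sox17 ran only from 2.05 to 2.22. For Sox9 they were Vwa5b2, Baz1b and Bag5 (r 0.94, 0.94 and 0.93), and without C10-434, the array with the dimmest Cy-5 channel, r fell to 0.79, 0.83 and 0.76. For the other 5 genes r over those 9 arrays was at least 0.93.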

How the data were processed

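Hemibrain RNA (Cy-5) was hybridized with a reference RNA (Cy-3) on 10 dual dye arrays. The authors deposited Feature Extraction output (version 10.10.1.1), in which signals are intensities on a linear scale, background-corrected and lowess dye-normalized in the processed columns. The deposited log ratio of a spot is log10 of Cy-5 over Cy-3 for most spots. It matched that value closely for 80.8% of spots on C10-434, the lowest share, to 93.8% on C10-423, the highest. It was exactly 0 for 19.2% of spots on C10-434 and for 6.27% on C10-423, the highest and lowest such shares. The authors also deposited a table whose values, set against those log ratios, are log2 ratios for most probes. Column medians of that table lay between -0.05 and 0.10.

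From the processed signals, log2 Cy-5/Cy-3 was computed without further normalization, using no control spot and no spot with an outlier flag, as the mean over each probe's spots. A probe counted as detected where at least 0.5 of its spots were flagged well above background. Bounds set the brighter channel against the higher of the dim signal and the lowest signal well above background among all probes on that array. Both were log2 signals after loess and Aquantile, averaged over arrays unless an array is named. The lowest such signal of an array is not a detection limit of the probe itself. Probes were named through RefSeq accessions (GRCm38.p6, names only); 27198 of 41174 (66.1%) matched. Sequences are from RefSeq. Slides came from file headers and were compared with limma 3.58.1 in R 4.3.3, tested on simulated data; other values used Python 3.11.15. Beside the 10 members with all probes, the highest and lowest gene of each list among those above background in both dyes, genes absent in Cy-5 and the 3 most alike genes were named (the highest gene of the oligodendrocyte and endoderm lists is not reported here); Sox6, Sox14, Gja1, Nfia, Lhfpl3, Rgs5, Abcc9, Col2a1, Afp and the comparison of channels by slide were chosen after their values were seen. Members and lists were chosen with earlier results of these data known. Alternatives were loess, median centring, normexp on median signals (the files carry no mean signals), the deposited table, all probes of a gene, other folds, a filter on dim probes and leaving out each array. A subtraction with a floor of 0.5 and an offset of 50, and list medians under each normalization, were added after the data were seen.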

Additional observations from a re-analysis of the deposited data

Results flagged for a closer look

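Over the 20 SOX probes, a gap test for 10 arrays (Dixon's, at the 95% level) set 1 array apart for 2 of them, and chance alone does so for about 1 in 20. Both times the array was C10-434, whose Cy-5 channel was the dimmest, with 50.4% of spots well above background against 68.9% or more on the others. The measured log2 ratio of Sox2 was 6.00 there and 6.98 to 7.89 on the other 9 arrays, but Cy-3 was not well above background on any of the 10 arrays, so their order is not read. Sox9 (A_52_P577484) had a ratio of 1.54 there, above 0.74 to 1.11 elsewhere, whereas the second Sox9 probe stood at 1.11 on that array, within the 0.76 to 1.75 of the others. The part of the dim channel in these values was not tested.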

How the results depend on the processing

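The count of 6 SOX genes at a ratio of at least 1 on every array was the same genes under loess, median centring, the subtraction with a floor and a 4-fold rule. The same 6 were also found in the deposited table and without any 1 array. Neither could lower the count, because the table repeats the log ratios of most probes and a rule on every array loses no gene with fewer arrays. The count was 5 with the mean over all probes of a gene (without Sox11) and 7 with a 1.5-fold rule (with Sox9). It was 3 with only probes well above background in both dyes and 0 after normexp. Under normexp the rule was met by 0 SOX genes on C10-413 and 3 on C10-415 but by 6 or 7 on each other array, and the SD of all log2 ratios on C10-413 was 0.55, against 2.02 before. The count of genes at -1 or lower, 0, became 1 with a 1.5-fold rule, which Sox4 met, and was 0 otherwise. The number of SOX genes differing between slides was 0 in every setting run, while the number of all probes called was 31, with 0 after normexp, 1 with the floor, 35 with only probes above background in both dyes and 0 to 18 without 1 array. No median ratio of a SOX gene past 1 in size changed sign in any setting. Of 160 median ratios under alternatives, 142 moved by less than the spread over the arrays and 18 by more. All 18 came after normexp, the floor or averaging of probes. Most of the 160 left out 1 array or used the deposited table, which can hardly move a median. Averaging of probes changes nothing for a gene with 1 probe. The 142 are therefore no measure of how firm the ratios are. The median of Sox2 was 2.97 after normexp and 3.40 with the floor, and that of Sox17 was 1.49 and 1.76. Both settings add an offset, which shrinks the ratios of dim signals by construction. Both also changed the background step and were followed by loess, and the part of each step was not tested. With the mean over probes Sox9 fell to 0.38. Many list medians shrank as well, among them, after normexp and with the floor, from 5.33 to 4.61 and 4.81 for neuron, from 4.84 to 3.08 and 3.19 for oligodendrocyte, from 2.30 to 0.55 and 0.80 for immature neuron, from 1.85 to 0.19 and 0.28 for mural cell and from -1.61 to -0.43 and -0.58 for endoderm genes. Signal over background limits Sox5, the dimmest Sox17 probe, the second probes of Sox8, Sox10 and Sox17 in Cy-3 and every Cy-3 value of Sox2.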

Other observations

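The arrays are in no group, and the ratios of Sox17 and Sox10 lay apart on several of them. Other SOX genes also had arrays apart, namely Sox4 on C10-423 and C10-435 and, as flagged above, Sox2 and Sox9 on C10-434. For Sox17 the values were 3.06, 3.09, 3.10 and 3.56 on C10-415, C10-417, C10-413 and C10-416, then 2.46 on C10-423 and 2.05 to 2.22 on the other 5. For Sox10 they were 3.85, 3.87 and 3.90 on C10-416, C10-415 and C10-417, then 3.29 or lower on the other 7. Sox17 and Sox10 had r 0.81 and rho 0.64 over the 10 arrays, of which 4 and 4 share a slide. C10-413, alone on its slide, was among the high arrays for Sox17 and not for Sox10. Its Cy-3 level of Sox17 was -3.63, between the levels of both 4-array slides, and its Cy-3 level of Sox10 was -1.45, within those of the second. On C10-437, also alone on a slide, the Cy-3 levels were -3.30 and -1.34, again between the slides for Sox17 and within the second for Sox10. Among the 6 SOX genes detected in both dyes on every array, Sox1 had r 0.81 with Sox10 (rho 0.76) over the same arrays. Its r was 0.71 with Sox17 (rho 0.64) and 0.63 with Sox4 (rho 0.67). Sox11 had r -0.51 with Sox4 (rho -0.32) and -0.46 with Sox1 (rho -0.33), but 0.34 with Sox9 (rho 0.53). With Sox10 and Sox17 the r of Sox11 was -0.02 and -0.30 (rho 0.25 and -0.15).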
